A study of Mus musculus with 4 samples.

Results

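Olfactory and vomeronasal receptor genes are among the largest gene families of the mouse genome, and their DNA methylation was described here in ESCs and in neurons derived from them. The members were the protein-coding genes of the GENCODE annotation whose symbols start with Olfr, Vmn1r or Vmn2r on chromosomes 1 to 6 and 11 to 19, each with 1 kb added on either side. They numbered 844 of the 15513 protein-coding genes of those chromosomes, with 677 Olfr, 105 Vmn1r and 62 Vmn2r genes. Over all chromosomes the annotation holds 1466 such genes. The choice rested on symbols and not on methylation, and since no RNA was measured in these samples, whether any of the receptors was expressed could not be checked.

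Olfr genes encode odorant receptors of the main olfactory epithelium, while Vmn1r and Vmn2r genes encode the vomeronasal receptors that detect pheromones and other chemical signals. All are G protein-coupled receptors that lie in tandem clusters, and a mature sensory neuron typically uses 1 olfactory receptor gene and keeps the others silent. The coding sequence of an Olfr or Vmn1r gene usually lies in a single exon, whereas Vmn2r genes spread theirs over several exons and encode a long extracellular domain. Their promoters are poor in CpG and the clusters are packed as silent chromatin outside the sensory epithelia. DNMT1 is the enzyme that copies CpG methylation onto the new strand after replication.

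RRBS libraries were available from 4 kinds of cells, with 1 library each. R1 ESCs are a wild-type mouse line, and the Dnmt1 Tet/Tet ESC line (1 line, derived from R1) carries tet-off constructs knocked in at Dnmt1. By its description this line overexpresses DNMT1 as ESCs and as neurons. Only the Tet/Tet ESCs were grown with puromycin (1 µg/ml) and neomycin (150 µg/ml), and both lines were kept in LIF. R1 neurons and Tet/Tet neurons came from the respective ESCs through 2 days as embryoid bodies without LIF and, by the labels, 10 to 15 days in Ndiff227 medium. In the labels both ESC libraries share the stem of a library code, both neuron libraries share another, and phenol and chloroform extraction is described for ESCs but a column kit for neurons, so cell type cannot be told apart from library code and, by the labels, extraction. The study's methods name phenol and chloroform for all of the DNA, and the sources used here leave this difference unresolved. Each comparison of Tet/Tet with R1 was within a code. The identity of the neurons was not checked here. With 1 library per condition no difference could be set against a spread between replicates and no test was made. The SD values below describe the variation over sites, genes or clusters within a library. The tables give a percentage per listed CpG without read totals, so the depth of each value is unknown. The number of listed CpGs on the 15 chromosomes, which is not a read depth, was 1724174 (R1) and 2180786 (Tet/Tet) for ESCs and 3966070 (R1) and 3711274 (Tet/Tet) for neurons. Unless stated otherwise, a methylation level is the unweighted mean over the CpG sites that all 4 libraries listed. Where 4 levels follow each other without labels, they belong to R1 and Tet/Tet ESCs and then to R1 and Tet/Tet neurons.

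Short stretches from 4 receptor genes show what was read. Each has 150 bases of the mm10 sequence, in the direction of transcription, with the CpG sites listed by all 4 libraries in capitals. The Olfr56 and Vmn2r7 stretches were the densest in listed sites within the gene of their family that held the most. The densest stretch of the Vmn1r family is not shown because it overlaps an untranslated exon. The coding stretches of Olfr94 and Vmn1r1 were chosen after values had been seen, the first because it lies in a CpG island and the second to represent the Vmn1r family.
Olfr56: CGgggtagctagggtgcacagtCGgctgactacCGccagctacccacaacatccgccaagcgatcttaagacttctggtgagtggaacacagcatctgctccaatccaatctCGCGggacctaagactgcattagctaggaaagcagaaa
Olfr94: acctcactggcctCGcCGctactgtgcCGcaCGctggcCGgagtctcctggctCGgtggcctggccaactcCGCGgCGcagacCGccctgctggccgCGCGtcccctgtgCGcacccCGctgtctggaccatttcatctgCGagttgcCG
Vmn1r1: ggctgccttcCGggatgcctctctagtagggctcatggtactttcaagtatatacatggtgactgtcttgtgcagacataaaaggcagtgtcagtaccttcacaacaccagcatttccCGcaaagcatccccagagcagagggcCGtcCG
Vmn2r7: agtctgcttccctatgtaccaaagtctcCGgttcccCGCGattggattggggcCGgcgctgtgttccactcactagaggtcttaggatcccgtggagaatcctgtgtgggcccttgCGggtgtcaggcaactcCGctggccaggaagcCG

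The Olfr56 stretch lies in an intron at chr11:49023302-49023451 on the plus strand and held 5 listed sites among 7 CpGs. Over the 5 sites the R1 ESC level was at most 4.84% and the R1 neuron level ran from 27.6% to 91.4%, while that of Tet/Tet neurons ran from 1.92% to 21.2%. The Olfr94 stretch, in the coding exon at chr17:37197199-37197348 on the minus strand, held 16 listed sites among 17 CpGs. Its sites did not pass 8.82% in R1 ESCs, and the highest level in R1 neurons was 18.5%. The Vmn1r1 stretch, in the coding exon at chr1:182157389-182157538 on the minus strand, held 4 CpGs that were all listed. Its first site had 45.0% (R1) and 43.9% (Tet/Tet) in ESCs, and 91.5% (R1) and 18.5% (Tet/Tet) in neurons. The Vmn2r7 stretch, in an intron at chr3:64697710-64697859 on the minus strand, held 7 listed sites among 9 CpGs. At its sixth site the level was 60.0% in R1 ESCs and 100% in the other 3 libraries, and at its seventh it was 80% (R1) and 33.3% (Tet/Tet) in ESCs, and 87.5% (R1) and 100% (Tet/Tet) in neurons. Thus 2 of the 7 sites in this intron stood at 100% in Tet/Tet neurons, in contrast to every listed site of the other 3 stretches. The fifth site beside them stood at 0% there, and with read totals unknown these values may rest on few reads.

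**Figure D1:**
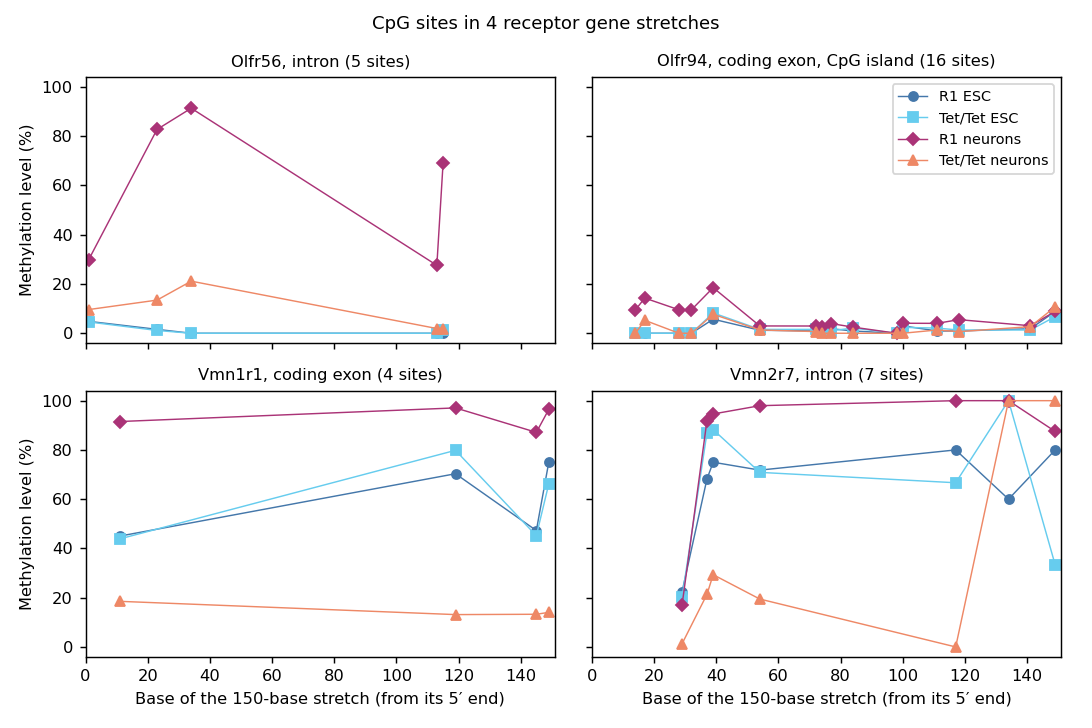
Methylation level (%) of each site listed in all 4 libraries against its base within the 150-base stretch, for Olfr56, Olfr94, Vmn1r1 and Vmn2r7; each point is 1 site in 1 library and lines join the sites of a library. R1 neurons lie highest at the 4 sites of Vmn1r1, all libraries stay at or below 18.5% in Olfr94, and the last 2 sites of Vmn2r7 are at 100% in Tet/Tet neurons.

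Receptor genes offered few CpGs to RRBS. Their windows held a median of 3.95 CpGs per kb against 12.7 in the other 14669 protein-coding genes, and a median GC content of 36.8% against 45.5%. CCGG, the MspI site, occurred at a median of 0.205 per kb against 1.00 per kb. An MspI fragment of 40 to 220 bp, the size range that RRBS favours, lay in the windows of 177 receptor genes (21%) and of 89.2% of the other genes. A CpG island lay within 1 kb of the start of 4 receptor genes (0.474%), in contrast to 61.5% of the other genes. The Vmn2r genes had an MspI fragment more often (64.5%) than Olfr (16.7%) or Vmn1r genes (22.9%), and their windows were the longest, with a median of 33614 bp against 8137 bp for Olfr.

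All 4 libraries listed 1258 of the 42433 CpGs in receptor windows (2.96%), as compared to 12.8% of the CpGs in other genes. Of these sites 820 lay in Olfr, 152 in Vmn1r and 286 in Vmn2r genes. At least 1 site was present in 229 receptor genes and at least 5 in 88, and 615 receptor genes had none, among them 518 of the 677 Olfr genes. The ESC libraries listed fewer of them than the neuron libraries. R1 ESCs listed 4.13% and Tet/Tet ESCs 5.77% of the receptor CpGs, whereas R1 neurons listed 13% and Tet/Tet neurons 11.9%. MspI fragments of 40 to 220 bp held 2.75% of all receptor CpGs but 39.5% of the shared sites. Repeat sequence held 40.5% of the shared receptor sites and 71% of those in Vmn2r genes, in contrast to 7.94% in other genes. After bisulfite conversion, the 51 bases around the site occurred once in the genome for 894 of the 1258 sites (71.1%) and for 52.4% of those in Vmn2r genes. Reads may therefore be hard to place at the remaining sites. Whether the other copies lie in family members or in repeats was not checked.

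The receptor families were at intermediate levels in ESCs, highly methylated in R1 neurons and sparsely methylated in Tet/Tet neurons. Over the 820 Olfr sites the mean level was 46.7% (R1, SD 31.5 over sites) and 50.3% (Tet/Tet, SD 30.6) in ESCs, and 84.7% (R1, SD 23.6) and 14.9% (Tet/Tet, SD 17.9) in neurons. Over the 286 Vmn2r sites it was 48.7% (R1) and 51.9% (Tet/Tet) in ESCs, and 85.9% (R1) and 17.1% (Tet/Tet) in neurons. Olfr and Vmn2r thus had similar means in every library, with SDs over sites far wider than the gap between them. Over the 152 Vmn1r sites the mean was 34% (R1) and 37.0% (Tet/Tet) in ESCs, and 57% (R1) and 8.86% (Tet/Tet) in neurons. This lower mean went with a single CpG island beside Vmn1r4, which held 50 of the 152 sites. Outside islands the Vmn1r mean was 50.3% (R1) and 54.4% (Tet/Tet) in ESCs, and 84.5% (R1) and 12.6% (Tet/Tet) in neurons (102 sites), close to Olfr with 48.7%, 52.9%, 88.3% and 15.5% in the same order (750 sites). The 286 Vmn2r sites were all outside islands.

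Compared with other genes, the receptors had a higher mean in each of the 4 libraries when all sites were used, and the gap was smaller where islands were left out. Over all sites the receptors had 45.6% (R1) and 49.1% (Tet/Tet) in ESCs, and 81.6% (R1) and 14.7% (Tet/Tet) in neurons, and the other genes 20.1%, 21%, 42.2% and 9.0%. Outside islands the receptors had 48.8%, 52.8%, 87.3% and 15.6%, and the other genes 38.8%, 40.6%, 79.6% and 15.4%. Islands held 9.54% of the receptor sites and 52.2% of the sites of other genes. In Tet/Tet neurons the receptors and the other genes thus had nearly the same mean outside islands.

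In both ESC libraries and in R1 neurons, receptors and other genes were closest at sites with few CpGs around them. This did not hold in Tet/Tet neurons. There, receptors and other genes had 13.1% and 16.2% with 3 CpGs within 100 bp, and 16.9% and 15.2% with 5 to 9. Where a site had 1 to 4 CpGs within 100 bp (itself included), the R1 ESC mean of receptors was between 45.9% and 54.4%, and that of other genes between 44.8% and 50.8%. With 5 to 9 CpGs the R1 level of receptors was 47.7% in ESCs and 86.7% in neurons, while the other genes had 35.6% and 76.7%. With 10 or more CpGs the R1 level of receptors was 25.4% in ESCs and 54.1% in neurons (225 sites), and the other genes 4.70% and 12.7%. These CpG-rich receptor sites (136 in Olfr, 53 in Vmn1r and 36 in Vmn2r genes) had different means by family. In R1 ESCs their mean was 35.1% in Olfr, 1.70% in Vmn1r and 23.9% in Vmn2r, and in R1 neurons it was 67.1%, 2.78% and 80.7%. The Vmn1r values lie near those of the single island at Vmn1r4, shared with a gene outside the receptors. Its 50 sites had 0.913% in R1 ESCs and 1.06% in R1 neurons, so the Vmn1r values need not describe the family.

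**Figure D2:**
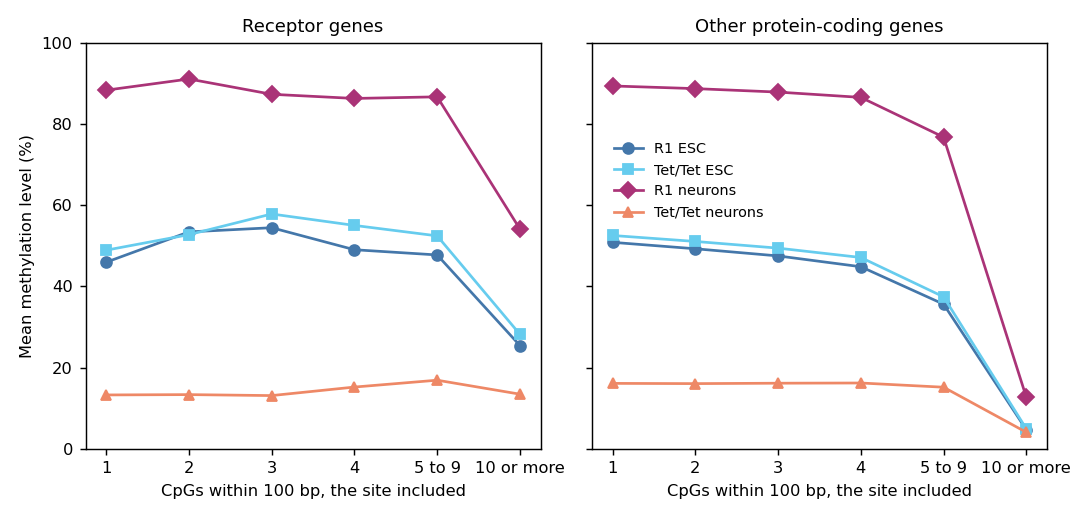
Mean methylation level (%) by the number of CpGs within 100 bp of a site, for receptor genes and for other protein-coding genes in each of the 4 libraries; points are means over sites. In R1 neurons both gene groups lie at similar levels at 1 to 4 CpGs. At 10 or more CpGs R1 neurons are at 54.1% in receptor genes and at 12.7% in other genes. Tet/Tet ESCs stand at 57.8% and 49.4% at 3 CpGs.

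Single receptor sites were mostly partly methylated in ESCs. In R1 ESCs 58.4% of the 1258 sites were at 20% to below 80%, 13.6% were at 0% and 12.1% were at 100%. In Tet/Tet ESCs 59.6% were in that middle range. In R1 neurons 28.7% of the sites were at 100% and a further 48.1% at 80% or more, with 14.5% in the middle range. In Tet/Tet neurons 26.8% were at 0%, 49.5% were above 0% and below 20%, and 25 sites (1.99%) were at 100%. Among other genes the middle range held 25.4% of the sites in R1 ESCs. As the read totals are unknown, a value of 0% or 100% may rest on few reads.

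**Figure D3:**
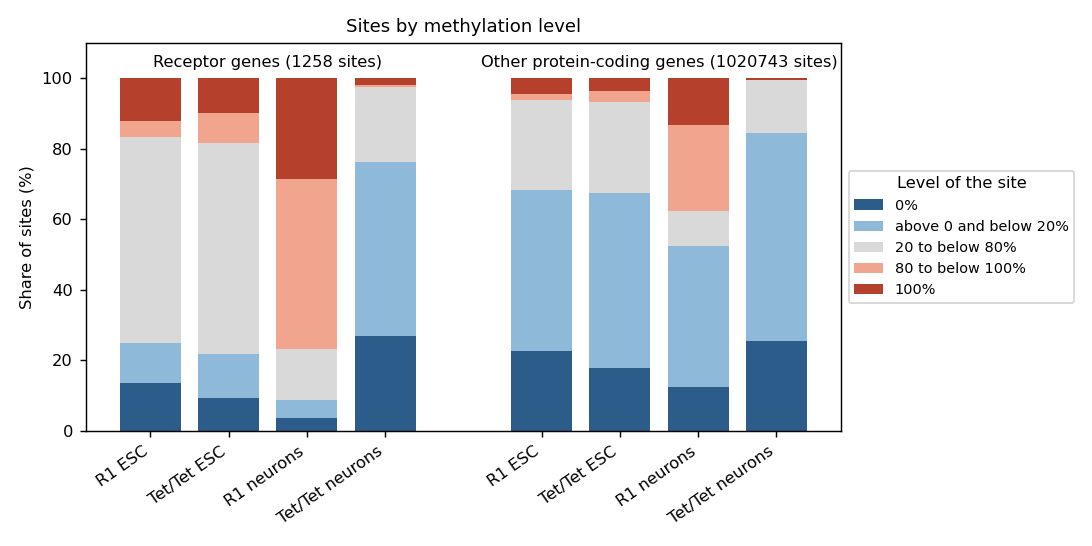
Share of sites (%) by their methylation level in each library, for the 1258 shared sites of receptor genes and the 1020743 of other protein-coding genes; each bar is 1 library. The middle range takes 58.4% of the receptor sites in R1 ESCs but 14.5% in R1 neurons, while 26.8% of them are at 0% in Tet/Tet neurons.

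Within the genes, the kilobase before the start was the least methylated part. Outside islands its 66 sites had 33.5% (R1) and 38.9% (Tet/Tet) in ESCs, and 76.8% (R1) and 11.9% (Tet/Tet) in neurons, whereas in other genes the same part had 12.2%, 12.7%, 39.0% and 7.25%. Coding exons of receptors outside islands (218 sites, 203 of them in Olfr genes) had 51.3%, 57.4%, 90.6% and 17.5%, and those of other genes 39.9%, 41.8%, 87.4% and 17.3%. Introns outside islands (462 sites) had 49.4% in R1 ESCs and 88.0% in R1 neurons. Non-coding exons outside islands (273 sites) had 49.1% and 86.7%. Over the 6793 shared sites within the clusters but outside the windows of all protein-coding genes the means were 45.9%, 49.2%, 79.7% and 16.3%. Windows of pseudogenes and non-coding genes were not left out of these sites. Outside islands 5854 of them had 48.6%, 52.3%, 81.1% and 16.1%, near the receptor means in ESCs and lower than the 87.3% of the receptors in R1 neurons.

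The first comparison asked how overexpression of DNMT1 went with methylation of the receptors in ESCs. The mean level of Tet/Tet ESCs was higher than that of R1 ESCs by 3.58 points in Olfr, 3.01 points in Vmn1r and 3.17 points in Vmn2r genes. Site by site the difference averaged 3.42 points with an SD of 27.4, with 682 sites higher, 403 lower and 173 equal. In other genes it averaged 0.937 points, and 470095 of 1020743 sites were higher, 403463 lower and 147185 equal. Of the 88 genes with at least 5 sites, 22 were higher in Tet/Tet ESCs by at least 10 points, and 8 were lower by that much. Over all 12833 genes with 5 sites the shares were 3.99% higher and 1.36% lower, against 25% and 9.09% of the receptors. The median difference was 3.69 points in the receptor genes and 0.649 in all genes. Outside islands 22 of 83 receptors were higher and 7 lower, beside 9.76% and 3.55% of all genes. The shares came closer when genes with like numbers of sites were used. Among genes with 5 to 20 sites outside islands, 21 of 78 receptors were higher and 7 were lower, beside 15.8% and 7.13% of all such genes. Few sites per gene widen the spread of gene means in both directions, and the part of this in the receptor counts was not tested.

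Olfr54 had the largest difference of that kind. Over its 5 sites the level was 41.0% (R1, SD 39.2 over sites) and 87.6% (Tet/Tet, SD 12.3) in ESCs, and 90.1% (R1) and 6.59% (Tet/Tet) in neurons. The ESC difference was 46.6 points over the 5 sites, 56.8 over 4 with a unique 51-base sequence and 21.2 over 2 in MspI fragments. Vmn2r90, over 6 sites, had 18.3% (R1, SD 15.6) and 49.7% (Tet/Tet, SD 27.1) in ESCs, and 77.2% (R1) and 12.4% (Tet/Tet) in neurons, and at each of its sites the Tet/Tet ESC level was the higher one. Vmn2r24, over 8 sites, had 46.8% (R1, SD 30.8) and 74.5% (Tet/Tet, SD 29.4) in ESCs, and 83.1% (R1) and 20.6% (Tet/Tet) in neurons. Its ESC difference of 27.7 points was 22.2 over 7 unique sites and 10.45 at the 1 site in an MspI fragment. In each of these 3 genes the 2 ESC levels lay between those of the neurons.

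On the other side, Olfr1390 had 53.1% in R1 ESCs (SD 30.1) and 24.5% in Tet/Tet ESCs over 7 sites, with 84.0% (R1) and 12.8% (Tet/Tet) in neurons. None of its 7 sites had a unique 51-base sequence, and all lay in a CpG island. They lie between chr11:49343106 and chr11:49343238, in the flank beyond the end of the gene. These levels therefore do not describe the gene body. Vmn2r107 had 28.6% in R1 ESCs (SD 26.7) and 0% at each of its 7 sites in Tet/Tet ESCs, with 76.2% (R1) and 4.76% (Tet/Tet) in neurons. Its sites all lie between chr17:20378957 and chr17:20379009, outside MspI fragments of 40 to 220 bp. The same reads may therefore cover several of them, and they do not stand for the whole gene. Vmn2r13, over 6 sites, had 51.1% (R1, SD 44.8) and 30.9% (Tet/Tet, SD 39.9) in ESCs, and 81.0% (R1) and 22.7% (Tet/Tet) in neurons. Over its 4 sites with a unique sequence the difference was -5.22 points.

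The second comparison set Tet/Tet neurons against R1 neurons. The mean level differed by -69.8 points in Olfr, -48.2 in Vmn1r and -68.8 in Vmn2r genes, with lower values in Tet/Tet neurons. Of the 1258 sites 1167 were lower in Tet/Tet neurons, 37 were higher and 54 were equal. In other genes 749601 of 1020743 sites were lower, 181613 were higher and 89529 were equal. All 88 genes with at least 5 sites were lower in Tet/Tet neurons, 87 of them by at least 10 points, beside 81.7% of all genes and 97.4% of all genes outside islands. None was higher by 10 points, and none of the 12833 genes was. The median difference was -73.8 points in the receptor genes and -31.4 points in all genes. Outside islands the medians were -74.2 and -65.5 points, and none of 83 receptors was higher by 10 points, beside 0.0166% of all genes. Among genes with 5 to 20 sites outside islands all 78 receptors were lower, beside 94.9% of all such genes, and 0.0409% of all such genes were higher. A share of all genes of that size leaves the count itself no sign of anything about the receptors.

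Because the neuron libraries listed more sites, this pair could be followed in more of the receptors. Both neuron libraries listed 3917 receptor sites, in 591 of the 844 genes. Their mean was 85.5% for R1 and 13.5% for Tet/Tet. At least 5 such sites were present in 227 receptor genes, of which 163 were Olfr, 24 Vmn1r and 40 Vmn2r genes, and all 227 were lower in Tet/Tet neurons by at least 10 points, beside 93.2% of the 13805 genes with 5 such sites.

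Over the sites listed in all 4 libraries, the largest differences in neurons were those of Olfr1459, Olfr15 and Vmn2r3. Olfr1459 had 100% (R1) and 100% (Tet/Tet) in ESCs, and 100% (R1) and 10.0% (Tet/Tet) in neurons over 5 sites (SD 22.4 in the last), of which 2 had a unique 51-base sequence, and over the 16 sites listed in both neuron libraries its difference was -79.2 points instead of -90. Olfr15 had 58.3% (R1) and 43.9% (Tet/Tet) in ESCs, and 96.7% (R1) and 7.14% (Tet/Tet) in neurons over 5 sites, and over the 25 sites listed in both neuron libraries its difference was -70.6 points. Vmn2r3 had 58.3% (R1) and 65.6% (Tet/Tet) in ESCs (a difference of 7.22 points, but -2.92 over the 8 sites listed in both ESC libraries), and 100% (R1) and 11% (Tet/Tet) in neurons over 6 sites, none with a unique 51-base sequence, and over 21 sites listed in both neuron libraries its difference was -73.0 points instead of -89.0. On the sites of both neuron libraries Olfr54 had -91.8 points (17 sites), so the order depends on the sites used. The smallest differences belonged to Vmn1r4 (-1.35 points), Olfr94 (-12.5) and Olfr750 (-32.1), which hold islands of low methylation. Over the gene body alone Olfr750 had -77.4 points (10 sites) and Vmn1r4 -17.2 (5 sites), and Vmn1r4 had 0.231 points over its 56 unique sites.

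**Figure D4:**
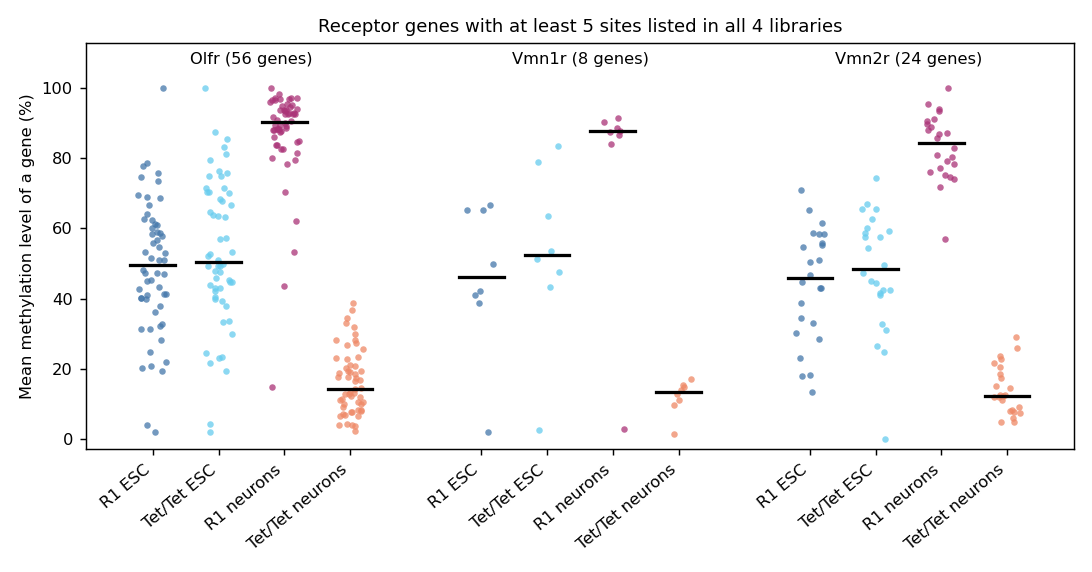
Mean methylation level (%) of each receptor gene with at least 5 shared sites, by family and library; each point is 1 gene and black bars are medians. The medians of the 56 Olfr genes are 49.5% (R1) and 50.4% (Tet/Tet) in ESCs, and 90.3% (R1) and 14.3% (Tet/Tet) in neurons, and the 24 Vmn2r genes lie at similar levels.

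From ESCs to neurons the 2 lines moved in opposite directions, with library code and extraction moving alongside, whose part was not tested. In R1 the neurons were higher than the ESCs by 38 points in Olfr, 23.0 in Vmn1r and 37.2 in Vmn2r genes, and 86 of the 88 genes were higher by at least 10 points, beside 74.1% of all genes, while none was lower, beside 0.0234%. Outside islands 82 of 83 receptors were higher, beside 95.8% of all genes, and none was lower, beside 0.0415%. With 5 to 20 such sites 77 of 78 were higher, beside 91.7%, and none was lower, beside 0.102%. In Tet/Tet the neurons differed from the ESCs by -35.4 points in Olfr, -28.2 in Vmn1r and -34.8 in Vmn2r genes, and 83 of the 88 genes were lower by at least 10 points, beside 46.4% of all genes, while none was higher, beside 0.132%. Outside islands 79 of 83 receptors were lower, beside 77.1% of all genes, and none was higher, beside 0.374%. With 5 to 20 such sites 74 of 78 were lower, beside 70.2%, and none was higher, beside 0.817%. With at least 5 sites outside islands the median difference for Tet/Tet was -37.3 points in receptors and -22.6 in all genes. R1 neurons held the highest of the 4 levels at 950 of the 1258 sites (75.5%), and Tet/Tet neurons the lowest at 912 (72.5%). In other protein-coding genes the same held at 59.2% and 39.7% of 1020743 sites, of which 52.2% lay in islands. The 2 comparisons of neurons with ESCs share libraries with the first 2, so the 4 sets of differences are not independent.

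The genes that carried the most sites show how the levels varied within a gene. Vmn2r7 (chr3:64685044-64844765, minus strand) had 60 sites with 71% (R1, SD 25.9) and 65.7% (Tet/Tet, SD 26.2) in ESCs, and 90.7% (R1, SD 13.6) and 21.5% (Tet/Tet, SD 24) in neurons. Its ESC difference was -5.33 points over all sites and 2.11 over the 22 sites in MspI fragments. Vmn2r91 (chr17:18085016-18136768, plus strand) had 27 sites with 22.9% (R1, SD 25.4) and 41.6% (Tet/Tet, SD 32.4) in ESCs, and 87.3% (R1) and 25.9% (Tet/Tet) in neurons. Of its sites 6 had a unique 51-base sequence, and over those the difference between the ESC libraries was -1.05 points instead of 18.7. Vmn2r18 (chr5:151561190-151606021, minus strand) had 17 sites with 30.3% (R1) and 45.1% (Tet/Tet) in ESCs, and 80.3% (R1) and 12.4% (Tet/Tet) in neurons. Its ESC difference of 14.8 points was -3.56 over its 7 unique sites, -3.24 over the 8 in MspI fragments, 8.45 over 18 sites listed in both ESC libraries and 25.2 in the gene body (11 sites). In neurons the difference was -67.9 points over all sites and -48.8 in MspI fragments. In these 3 vomeronasal genes the sign of the ESC difference thus turned with the sites used.

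Olfr56 (chr11:48978889-49135387, plus strand) had 42 sites, 20 of them also in the window of another gene, with 40.3% (R1, SD 29.2) and 47.7% (Tet/Tet, SD 27.8) in ESCs, and 87.7% (R1) and 19.3% (Tet/Tet) in neurons. Olfr279 (chr15:98492402-98502637, plus strand) had 33 sites with 47.3% (R1) and 46.0% (Tet/Tet) in ESCs, and 93.7% (R1) and 11.9% (Tet/Tet) in neurons. Its R1 neuron level had an SD of 6.88 over sites, narrower than the SD of 21.7 in R1 ESCs. Vmn1r1 (chr1:182154704-182164486, minus strand) had 15 sites with 65.3%, 63.6%, 90.5% and 15.3%. Its ESC difference was -1.74 points over all sites, -20.5 in the gene body (5 sites), 5.51 in MspI fragments (11 sites) and 5.14 over 9 unique sites. Vmn1r42 (chr6:89842573-89876413, minus strand) had 13 sites with 66.8%, 78.9%, 87.6% and 13.9%, and 7 of them also lay in the window of its neighbour Vmn1r43. Between the ESC libraries 12 of its sites were higher in Tet/Tet and none was lower, and the difference was 12.1 points over all sites and 4.21 over the 7 in MspI fragments.

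CpG islands that touched receptor windows differed widely in level. The island at the start of Vmn1r4 (chr6:56923571-56924058, 62 CpGs) also covers the start of Nt5c3, a nucleotidase gene of another family, and its 50 sites had 0.913% (R1) and 1.57% (Tet/Tet) in ESCs, and 1.06% (R1) and 1.32% (Tet/Tet) in neurons. The level of Vmn1r4 over all its 57 sites, 2.02%, 2.60%, 2.82% and 1.47%, thus comes mostly from sites of an island shared with a gene outside the receptors. The other islands with listed sites had no annotated start of a gene within 1 kb. The Olfr94 island (chr17:37196892-37197632, 73 CpGs, 24 sites) had 1.95%, 2.02%, 14.7% and 2.20%, with the values of the coding stretch printed above among them. The Olfr750 island had 0% at its 8 sites in all 4 libraries, while Olfr750 as a whole had 19.2%, 23.5%, 43.5% and 11.5% over 26 sites. Its ESC difference was 4.24 points over these and 13.5 over the 10 sites of its gene body. The Olfr1419 island (14 sites) had 16.9% (R1) and 12.9% (Tet/Tet) in ESCs, and 54.2% (R1) and 7.55% (Tet/Tet) in neurons. The Olfr164 island (5 sites) had 77.7%, 81.4%, 95.3% and 34.4%, and the Olfr279 island (5 sites) had 44.9%, 30.1%, 92.4% and 17.8%. The Olfr282 island (3 sites) had 46.7%, 58.6%, 73.8% and 25%, and the Olfr1459 island (4 sites) had 100% in both ESC libraries and in R1 neurons, while that of Olfr1390 held the 7 sites given above.

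The neighbour of Olfr94, Olfr95, was chosen after its values had been seen. Its 10 sites lay outside islands and had 3.95% (R1, SD 7.74) and 4.19% (Tet/Tet, SD 5.21) in ESCs, and 82.7% (R1, SD 26.1) and 4.10% (Tet/Tet, SD 4.73) in neurons. Here both ESC libraries and the Tet/Tet neurons were at one low level, and R1 neurons alone were high. All 10 sites had a unique 51-base sequence.

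In the genome the 844 genes formed 49 clusters, taken as runs of receptor genes with no gap above 1 Mb. Of these 39 held a shared site and 21 held at least 20, with 706 genes and 1113 sites. Over the 21 clusters the median level was 48.2% for R1 (16% to 66.3%) and 51.9% for Tet/Tet (15.2% to 69.1%) in ESCs, and 90.1% for R1 (27.6% to 93.2%) and 15.7% for Tet/Tet (4.19% to 26.7%) in neurons. The Tet/Tet ESC level was above the R1 ESC level in 15 clusters and below in 6, with a median difference of 3.66 points and an SD of 5.52 over clusters. Tet/Tet neurons were below R1 neurons in each of the 21, with a median difference of -71.9 points. R1 neurons were above R1 ESCs in all of them (median 36.8 points), and Tet/Tet neurons were below Tet/Tet ESCs in all of them (median -38.6 points).

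**Figure D5:**
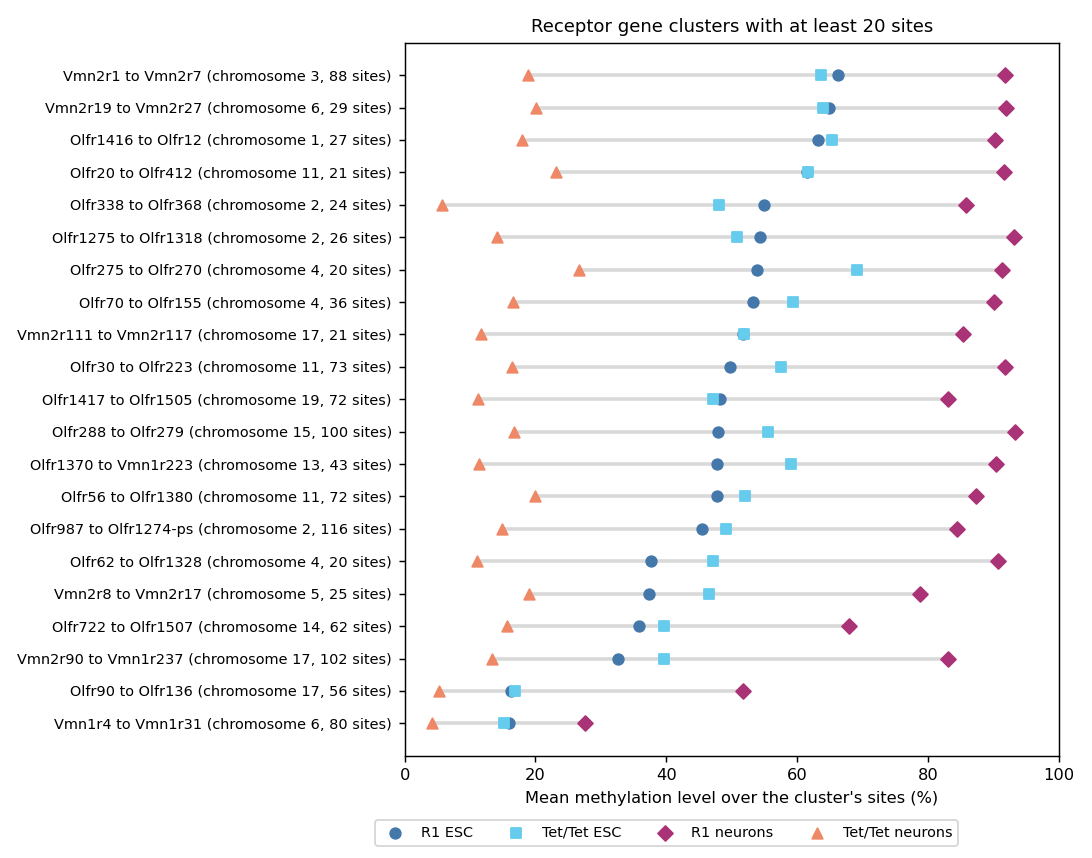
Mean methylation level (%) of the 21 receptor clusters with at least 20 shared sites in the 4 libraries, ordered by the R1 ESC level; each symbol is the mean over the sites of a cluster in 1 library. In each cluster R1 neurons lie farthest to the right and Tet/Tet neurons farthest to the left, and the clusters of Vmn1r4 and of Olfr90 to Olfr136 lie lowest in R1 neurons, at 27.6% and 51.7%.

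The largest cluster, of 227 Olfr genes on chromosome 2 (Olfr987 to Olfr1274-ps), had 116 sites with 45.4% (R1) and 49.1% (Tet/Tet) in ESCs, and 84.5% (R1) and 14.9% (Tet/Tet) in neurons. Among the 21 clusters the highest R1 ESC levels were found in vomeronasal ones, with 66.3% in R1 ESCs for Vmn2r1 to Vmn2r7 on chromosome 3 (88 sites, 60 of them in Vmn2r7) and 64.8% for Vmn2r19 to Vmn2r27 on chromosome 6 (29 sites). The Olfr cluster from Olfr1416 to Olfr12 on chromosome 1 (27 sites) followed with 63.2%. In the mixed cluster of Vmn2r90 to Vmn1r237 on chromosome 17 (102 sites), in contrast, the R1 ESC level was 32.6% and the R1 neuron level 83.1%. The vomeronasal cluster of Vmn2r8 to Vmn2r17 on chromosome 5 (25 sites) had 37.3% in R1 ESCs. The cluster from Olfr90 to Olfr136 on chromosome 17 had 16.3%, 16.9%, 51.7% and 5.33%, and 27.0%, 28.1%, 79.4% and 7.68% outside islands. Among the same 21 clusters the largest ESC difference in favour of Tet/Tet was 15.3 points in the cluster from Olfr275 to Olfr270 on chromosome 4 (20 sites), and the largest in favour of R1 was that of Olfr338 to Olfr368 on chromosome 2, with -7.00 points over 24 sites. The latter cluster also had a Tet/Tet neuron level of 5.75%. Outside islands the cluster levels of R1 and Tet/Tet ESCs went together with a Pearson r of 0.846 over the 21 clusters, and those of R1 ESCs and R1 neurons with an r of 0.642. Clusters share the libraries and differ in their number of sites, so these values are descriptions.

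The receptors work together with other genes, of which a list of 31 for smell and pheromone detection was used. It holds signalling proteins such as the G protein subunit Gnal, the adenylyl cyclase Adcy3 and the chloride channel Ano2, the receptor transporters Rtp1 and Rtp2, and the regulators Lhx2, Ldb1 and Ebf1. At least 5 shared sites were present in 22 of them. Between the ESC libraries 4 of the 22 were higher in Tet/Tet by at least 10 points and 1 was lower, beside 3.99% and 1.36% of all genes. The higher genes had 5 to 18 shared sites and the lower one 10. Among all genes with 5 to 20 sites outside islands the shares were 15.8% and 7.13%. The median difference of the 22 was -0.212 points, and the mean level over the sites of the list was 20.1% (R1) and 19.7% (Tet/Tet). Between the neuron libraries 21 of the 22 were lower in Tet/Tet by at least 10 points, beside 81.7% of all genes. The 4 were Gucy1b2, a guanylate cyclase subunit (52.6% in R1 and 65.6% in Tet/Tet ESCs), Stoml3, a protein of sensory cilia (49.3% and 62.3%), Rtp1 (40% and 55.2%) and H2-M10.6. Lhx2, a transcription factor needed to choose receptors, had 7.49%, 7.06%, 11.8% and 4.50% over 353 sites. Ano2 had 49.7%, 50.0%, 87.4% and 16.4% over 163 sites, close to the levels of the receptors. Rtp2, which helps receptors reach the cell surface, had 63.3%, 61.5%, 93.3% and 15.3% over 18 sites. The H2-M10 genes, which are expressed together with Vmn2r receptors, had few sites, with 57%, 45.3%, 94.1% and 14.3% over 10 sites of H2-M10.2, 47.8%, 53.0%, 72.6% and 13.8% over 8 sites of H2-M10.4, and 51.1%, 73.7%, 87.4% and 14.2% over 6 sites of H2-M10.6. The vomeronasal formyl peptide receptors Fpr-rs3, Fpr-rs4, Fpr-rs6 and Fpr-rs7 had no site listed in all 4 libraries.

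The mean level of tandem families of other tissue-specific genes, pooled outside islands, was within a few points of that of the receptors. The bitter taste receptors (Tas2r), hair keratin-associated proteins (Krtap), Skint, Mup, Klr and Prl genes together had 50.6% (R1) and 52.2% (Tet/Tet) in ESCs, and 85.6% (R1) and 17.8% (Tet/Tet) in neurons over 244 sites, beside 48.8%, 52.8%, 87.3% and 15.6% in the receptors. The families differed among themselves. Tet/Tet ESCs were above R1 ESCs in Krtap (51% and 58.7%, 53 sites) and Klr genes (52.0% and 56.1%, 92 sites), and below in Mup (48.3% and 39.8%, 37 sites), Skint (43.2% and 41.8%, 37 sites), Prl (64% and 63.4%, 14 sites) and Tas2r genes (52.1% and 52.0%, 11 sites). In R1 neurons their levels ran from 77.5% in Klr to 95.1% in Prl genes. Whether the receptors differ from these families was not tested.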

How the data were processed

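RRBS libraries came from R1 ESCs, from the Dnmt1 Tet/Tet line and from neurons of each, 1 library per condition. Per the submitters' processing notes, reads were handled with Trim Galore 0.6.4, FastQC 0.11.8, Bismark 0.19.0 and MethylDackel 0.3.0 on mm10. The authors deposited 1 percent value per CpG, the share of its reads that kept cytosine, with no read totals and no normalization between libraries. The depth per site is thus unknown, no interval or read minimum was applied, and the site-level Fisher's exact test of the study's methods, which needs read totals, could not be run.

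Python 3.11.15 with numpy 2.4.6, numba 0.67.0 and matplotlib 3.10.9 was used, with the GRCm38 (mm10) sequence and GENCODE M21 genes. Only chromosomes 1 to 6 and 11 to 19 were used, since Tet/Tet neurons were only partly covered on the rest here. Of the 844 gene entries, 2 share the symbol Vmn1r216, leaving 843 symbols. An island was a CpG-rich run longer than 200 bp whose CpG count exceeded 0.6 of that expected from its base composition, with GC of 50% or more. A gene was counted as higher or lower from 5 shared sites and a gap of 10 points upwards, beside the same share over all protein-coding genes. Every site had equal weight, so a site with few reads counted like one with many, which adds spread to genes with few sites. The calculations were tested on simulated data.

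Genes named are the 3 per family with the most shared sites and, for ESCs and for neurons, the 3 with the largest difference in each direction between Tet/Tet and R1, and any gene of the smell list with at least 5 sites. Olfr95, the other island genes (Olfr164, Olfr282, Olfr1419), the genes that bound clusters, the neighbours Vmn1r43 and Nt5c3, and smell genes with fewer sites fall outside that rule and were named after their values were seen. The members and lists were chosen with earlier results of these data known. Alternatives concerned the sites, the part of a gene, the weighting, the minimum sites and difference, and the cluster gap. Those on islands, on windows of other genes and on Vmn1r4 were added after seeing the data.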

Additional observations from a re-analysis of the deposited data

Results flagged for a closer look

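The gap between the lines turned its sign from ESCs to neurons in each receptor family. Tet/Tet minus R1 in neurons, less the same in ESCs, was -73.4 points in Olfr, -51.2 points in Vmn1r and -72.0 points in Vmn2r genes. It drew attention because Tet/Tet was above R1 in ESCs and below R1 in neurons. The other protein-coding genes turned in the same way. Outside islands Tet/Tet minus R1 was 1.84 points in ESCs and -64.2 in neurons over their sites, and 3.99 and -71.7 over those of all receptors, so the turn is not particular to the receptors. The difference was not tested, as each condition had 1 library, and cell type cannot be told apart from library code and extraction.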

How the results depend on the processing

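Over 13 alternatives for Olfr and Vmn1r and 12 for Vmn2r, no family difference turned its direction. Tet/Tet ESCs stayed above R1 ESCs by 2.22 to 6.70 points in Olfr, 0.606 to 7.74 in Vmn1r and 0.838 to 17.6 in Vmn2r genes, the last within 1 kb of the start (10 sites). There, R1 neurons were above R1 ESCs by 50.3 points in Olfr and 52.7 in Vmn2r, while Vmn1r genes, with 69 sites there, gave -13.7 points for Tet/Tet against R1 neurons, 7.24 for R1 neurons against R1 ESCs and -8.27 for Tet/Tet neurons against Tet/Tet ESCs. Of these 69 sites 50 lie in the island at Vmn1r4. In the kilobase before the start, the 17 Vmn1r sites outside islands gave -50.4 points for Tet/Tet against R1 neurons. Other Vmn1r values moved too. Tet/Tet against R1 neurons gave -64.2 with sites of both libraries, -64.9 with each library's own sites, -72.0 in gene bodies, -75.3 over gene means, -65.0 over cluster means, -71.9 outside islands, -76.4 outside windows of other genes and -76.2 without Vmn1r4. R1 neurons against R1 ESCs gave 37.3 with own sites, 35.3 in gene bodies, 37.0 over gene means, 34.2 outside islands, 36.3 outside other windows and 36.3 without Vmn1r4. Tet/Tet neurons against Tet/Tet ESCs gave -41.0 in gene bodies, -45.6 over gene means, -39.6 over cluster means, -41.9 outside islands, -44.5 outside other windows and -44.4 without Vmn1r4.

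Shares of all protein-coding genes under the same setting stand in brackets. With 3 sites (136 receptor genes) 36 (4.67%) were higher and 16 (1.87%) lower in Tet/Tet ESCs, 135 (82.1%) lower in Tet/Tet than in R1 neurons and 127 (47.5%) lower in Tet/Tet neurons than ESCs. With 10 sites (30 genes) the counts were 9 (2.74%), 0 (0.728%), 29 (80.8%) and 27 (44.2%), and 29 (73%) were higher in R1 neurons than ESCs. A minimum of 20 points gave 7 (0.779%) higher and 3 (0.343%) lower between ESCs. MspI fragments alone (35 genes) gave 8 (2%) higher and 1 (0.3%) lower between ESCs, 33 (66.4%) lower between neurons, 33 (58.9%) higher from R1 ESCs to neurons and 31 (30%) lower from Tet/Tet ESCs to neurons. Sites of both libraries gave 227 (93.2%) lower between neurons, and 2 (0.218%) higher in Tet/Tet neurons than ESCs. Of single genes, the ESC difference of Vmn2r91 was -1.05 over unique sequences, and that of Vmn2r18 was -3.56 over unique sequences and -3.24 in MspI fragments. The cause was not tested. Cluster levels moved by less than 1 SD over clusters with gaps of 0.5 or 2 Mb. No paired analysis was possible because each condition had 1 library and no test was made.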

Other observations

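The receptor genes on chromosomes 7, 9 and 10 could be described in 3 of the libraries, Tet/Tet neurons not being analysed here on those chromosomes as a whole. Over 608 genes and 837 sites listed in these 3 libraries the means were 47.4% (R1) and 52.2% (Tet/Tet) in ESCs and 86.7% in R1 neurons. The 132 Olfr genes of chromosome 9 had 35.7%, 41.8% and 83.7% over 102 sites, below the 244 Olfr genes of chromosome 7 with 48.0%, 53.4% and 88.9% over 304 sites. The 70 Olfr genes of chromosome 10 had 40.9%, 42.9% and 79.9% over 46 sites. The 103 Vmn1r genes of chromosome 7, away from the Vmn1r4 island, had 57.9%, 60.0% and 86.5% over 93 sites. The 51 Vmn2r genes of chromosome 7 had 51.3%, 57.9% and 88.5% over 202 sites. In each of these 5 groups Tet/Tet ESCs lay above R1 ESCs, by 1.96 to 6.57 points.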
